A study of Mus musculus with 21 samples.

Results

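The genes described here encode the receptors for glutamate and the proteins that hold them at the excitatory synapse. They are 35 genes chosen by name: 4 AMPA receptor subunits (Gria), 5 kainate receptor subunits (Grik), 6 NMDA receptor subunits (Grin), 6 metabotropic glutamate receptors (Grm), 4 genes of the Dlg scaffold family, 3 of the Shank family, 2 Homer genes, 3 Dlgap genes and the 2 main brain subunits of calcium/calmodulin-dependent kinase II (Camk2a and Camk2b). All 35 were among the 41128 gene symbols of the table, and all 35 were expressed highly enough to be tested in each comparison. RNA was sequenced from striatal tissue of wild-type mice, collected 3 weeks after injection of the striatum with adeno-associated virus, which carries a gene into cells without replicating there. The series is titled for a Cas9 nuclease with a shortened half-life and lower neuronal toxicity. The labels name the virus of each library as Cas9, GCas9 or GFP (a fluorescent protein), or give WT in its place, without saying whether the WT mice received a virus. They do not explain the name GCas9, which in this study is known to stand for a fusion of Cas9 with a piece of Geminin, a protein broken down in part of the cell cycle. They name no promoter, viral dose or guide RNA, and 2 fields disagree on the age (3 weeks or 3 months).

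The libraries form 2 sets that the authors scaled apart. In set A there are 3 WT, 3 Cas9 and 3 GCas9 libraries, and in set B there are 4 GFP, 4 Cas9 and 4 GCas9 libraries. Values are normalized read counts, that is, reads divided by 1 factor per library, and they can be compared between libraries of a set but not across the sets. Reads on genes came to between 20.34 and 28.05 M (mega) for the libraries of set A and between 6.09 and 11.07 M for those of set B, where each Cas9 library (6.09 to 7.69 M) was shallower than each GFP and GCas9 library. The labels do not say that replicates were separate mice, so p-values measure the spread between these libraries only. The tissue label was checked on 9 markers of striatal spiny neurons (Drd1, Drd2, Ppp1r1b, Penk, Tac1, Adora2a, Rgs9, Pde10a and Adcy5), none of which was at 0 in any library. Their summed values were 235150 to 300950 in the libraries of set A and 90512 to 115800 in those of set B, against 2003 to 4524 and 881 to 2403 for 12 markers of cortical excitatory neurons. By tissue content, 1 library of each set stood apart. Cas9 replicate 1 of set A held 280177 normalized reads of Ttr, a marker of the choroid plexus. The other 8 libraries of set A held 188 to 10462. Cas9 replicate 1 of set B had a mean log2 level of 8.69 over 5 choroid plexus markers. The other libraries of set B were at 5.31 to 6.23.

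Glutamate opens the ion channels of the AMPA, NMDA and kainate receptors and acts through G proteins on the metabotropic receptors. AMPA receptors carry most of the fast current, and the Gria2 subunit makes them nearly impermeable to calcium. NMDA receptors need Grin1 together with Grin2 or Grin3 subunits, and their calcium current activates Camk2, which triggers changes in synaptic strength. Below the membrane, Dlg4 (PSD-95) and its relatives bind the receptor tails, Dlgap proteins link Dlg to Shank, and Homer links Shank to Grm5. Medium spiny neurons, which make up most of the striatum, receive this input from the cortex and thalamus.

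Levels per length, as reads per kilobase of exon and per M of gene reads (RPKM), ordered the genes over a wide range. In set A the highest levels were those of Camk2b, 401 ± 37.4 (SD, n = 9), and Camk2a, 400 ± 36.3, which did not differ beyond their spread. Grin1, the obligatory NMDA subunit, followed at 154 ± 9.34, with Dlgap3, a Shank partner enriched in striatum, at 143 ± 11.7, and these neighbours overlapped. Next came Gria1 at 94.5 ± 8.91, Gria2 at 81.9 ± 8.79, Dlg4 at 77 ± 5.39, the kainate subunit Grik5 at 76.2 ± 6.2 and Shank3 at 74.2 ± 4.57. Over the libraries, the range of each overlapped that of its neighbour in this order. Within each library of set A, Gria2 was below Gria1 (ratio of 0.772 to 0.946). Grm5, the main group I metabotropic receptor of spiny neurons, stood at 53.9 ± 5.76, above Gria3 at 40.3 ± 2.8. Its lowest library (40.1) lay within the range of Gria3, but Gria3 was also lowest in that library (33.6). The lowest levels were those of Grik1 (0.986 ± 0.28), Grin2a (0.667 ± 0.361) and Grm2 (0.396 ± 0.217). Part of the exons of Grin1 (29.9% of its bases) is shared with the antisense gene Grin1os, and 9.51% of those of Grm2 with Gm28111; the labels do not say that counting used the strand, so these values are uncertain. With the longest transcript in place of all exons, Grin2c, Grm3 and Homer1 moved by more than 2 places in set A, by up to 8. Dlg4 then stood at rank 5 with 146 ± 10.2 RPKM, above Gria1 at 98.6 ± 9.3 without overlap.

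In set B Camk2b was again the highest at 422 ± 25.9 RPKM (n = 12), but Camk2a stood apart from it at 159 ± 25.2. Grin1 (108 ± 8.98), Gria2 (85.8 ± 8.28) and Gria1 (81 ± 5.06) followed, and Grm2 was again the lowest at 0.498 ± 0.316. Dlg4 stood at rank 26 with 4.21 ± 0.543 RPKM, where it was at rank 7 in set A.

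**Figure D1:**
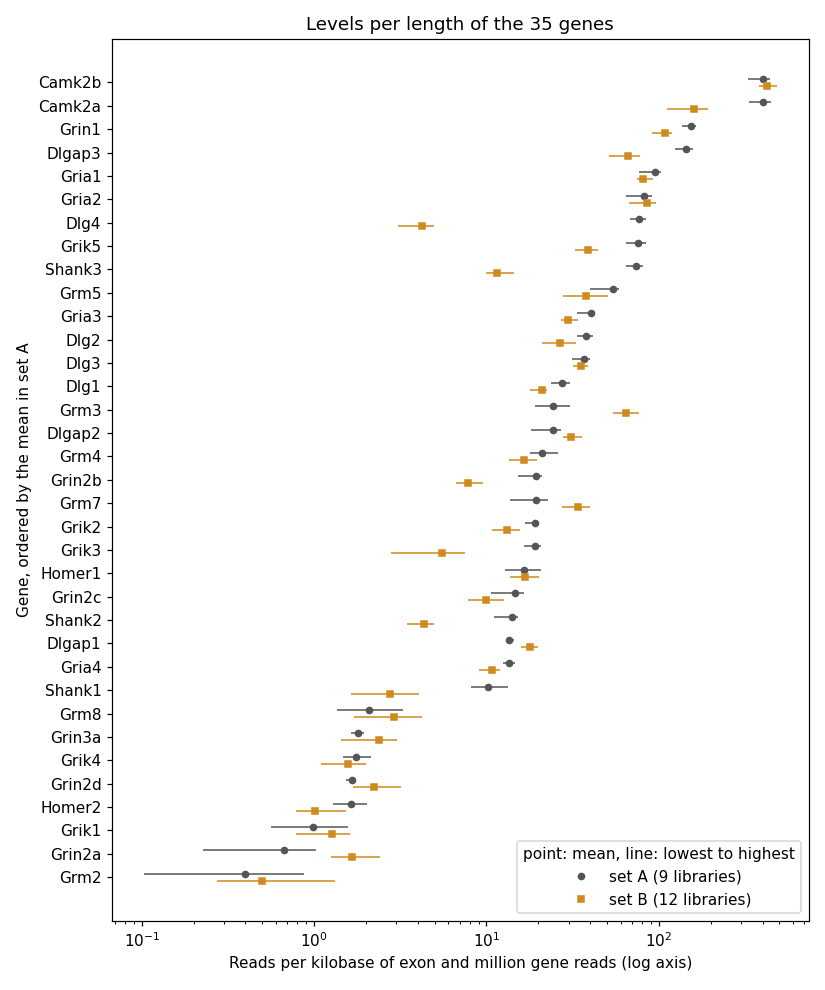
Mean level per length of each of the 35 genes (points, RPKM on a log axis, genes in the order of set A) with lines from the lowest to the highest library, for the 9 libraries of set A (circles) and the 12 of set B (squares). The levels run from 401 RPKM for Camk2b to 0.396 for Grm2 in set A. The gap between sets is widest for Dlg4 (77 against 4.21), across sets that the authors scaled and may have prepared apart.

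Among the AMPA subunits, the shares of the summed level per length lay close together in the groups of a set. Gria1 made up 42% in WT, 40.4% in Cas9 and 40.6% in GCas9 of set A, and between 38.6% and 39.4% in the groups of set B. Gria2 made up 34.8% to 36.4% in the groups of set A and 41% to 41.6% in those of set B, Gria3 17.1% to 18.1% and 14.1% to 14.7%, and Gria4, the rarest of the AMPA subunits, 5.78% to 6.16% and 5.06% to 5.3%. The ratio of Gria2 to Gria1 per length lay between 0.772 and 0.946 in the libraries of set A and between 0.905 and 1.26 in those of set B.

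The kainate family was led by Grik5, a subunit that needs a partner of Grik1 to Grik3 to form a channel, with 64.4% to 65.6% of the family in groups of set A and 63.2% to 66.1% in those of set B. Of the partners, Grik2 held 16% to 16.8% and Grik3 16.1% to 16.5% in set A, while in set B Grik2 held 21.2% to 21.9% and Grik3 10.5% with GFP, 9.23% with Cas9 and 7.69% with GCas9. Grin1 made up 79.7% to 83.4% of the NMDA family in the 6 groups. Of the Grin2 subunits, which set the kinetics of the channel, Grin2b (9.71% to 10.3%) and Grin2c (7.07% to 8.34%) led in set A, and Grin2c (6.74% to 8.32%) and Grin2b (5.45% to 6.59%) in set B. These shares depend on the exon length, 24787 bases for Grin2b and 5037 for Grin2c. In normalized reads Grin2b was above Grin2c, with means of 12164 against 1828 in WT of set A and 1539 against 388 with GFP.

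Grm5 held 43.6% to 45.7% of the metabotropic receptors in groups of set A and 22.8% to 25% in those of set B, where Grm3, a receptor found in astrocytes as well as neurons, held 40.4% to 42.3%. Among the scaffolds, Shank3 made up 74.3% to 77% of the Shank genes in groups of set A and 60.6% to 63.1% in those of set B. Homer1 made up at least 90% of the Homer genes in each group. The Camk2a share of the kinase pair was 48.7% to 51.8% in groups of set A and 26.3% to 27.9% in those of set B.

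The spread between libraries was uneven across the 35 genes. In set A the within-group SD on the log2 scale had a median of 0.145 over the genes described, against 0.144 over all genes tested. Dlgap1, which bridges Dlg4 and Shank, had the smallest of the 35 at 0.03, at the 0.603rd percentile of all genes tested. Its values were 3036, 3062 and 3192 in WT, 3028, 2993 and 2975 with Cas9, and 2878, 2919 and 3006 with GCas9. Grin2a (1.01, the 96.3rd percentile) and Grm2 (0.931, the 95.9th) had the widest. Grm2, a presynaptic receptor that damps glutamate release, was read at 11.6, 37.1 and 97.9 in WT, 57.2, 44.4 and 26.3 with Cas9, and 49.9, 34.6 and 38.5 with GCas9.

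Grin2a, the NR2A subunit, split the libraries of set A across the groups. Its values were 331, 359 and 105 in WT, 132, 302 and 371 with Cas9, and 78.6, 368 and 93.9 with GCas9, a range of 4.72-fold. WT replicate 3, Cas9 replicate 1 and GCas9 replicates 1 and 3 were low, at most 132, and the other 5 libraries were at 302 or more. Grin2b did not split in this way: the ratio of Grin2b to Grin2a per length was 40.8 to 86.2 in the 4 low libraries and 17.3 to 25 in the other 5, while in set B it lay between 3.13 and 6.55. Grin2a lies at chr16:9567898-9995560 on the minus strand (GRCm38, GENCODE M21), and its longest transcript has 14634 bases. A long transcript index was computed after these values had been seen, as the median log2 deviation from the set mean over 811 genes outside the 35 with transcripts of at least 8000 bases. It was -0.054, -0.097, -0.047 and -0.066 in the 4 low libraries and 0.010 to 0.081 in the other 5. The same 4 libraries also held more Slc17a7, the vesicular glutamate transporter of cortical neurons, at 394 to 1561 against 121 to 328 in the other 5. Since the index was chosen with the Grin2a values in view, this match is no evidence on them, and the part of transcript length and of cortical tissue was not tested.

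**Figure D2:**
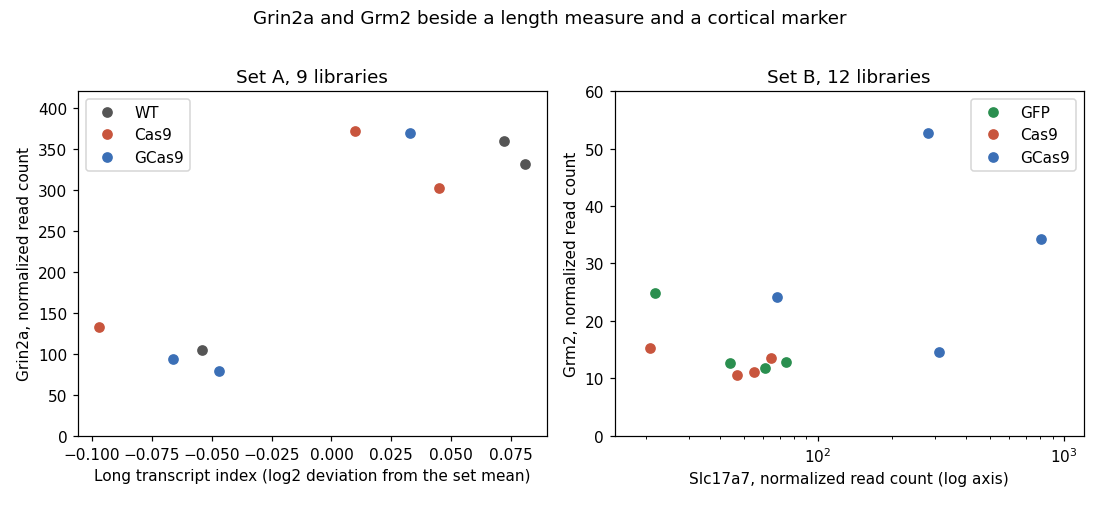
Left, Grin2a (normalized read count) against the long transcript index (log2 deviation from the set mean) in the 9 libraries of set A, with the 4 libraries below 0 on the index at 78.6 to 132 and the other 5 at 302 to 371. Right, Grm2 (normalized read count) against Slc17a7 (normalized read count, log axis) in the 12 libraries of set B, where GCas9 replicates 2 and 4 are high in both measures (Slc17a7 at 280 and 804, Grm2 at 52.8 and 34.2) and GCas9 replicate 1 in Slc17a7 only (312, with Grm2 at 14.6).

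In some libraries most of the genes lay on the same side of the control mean. The share of all genes doing so was not computed for single libraries. As the median log2 deviation of the 35 genes from the control mean of the set, Cas9 replicate 1 of set A was at -0.250 (30 of 35 genes below the WT mean), GCas9 replicate 3 at -0.222 (33 of 35), Cas9 replicate 3 at -0.104 (29 of 35) and GCas9 replicate 1 at -0.094 (32 of 35). Replicate 2 of both nucleases stayed near the WT mean, at 0.012 with Cas9 (16 of 35 below) and -0.007 with GCas9 (18 of 35). Cas9 replicate 1 was the library with the choroid plexus marker, and GCas9 replicate 3 had the highest mean log2 level of 8 interferon-induced genes, 11.85 against 5.29 to 8.64 in the other 8 libraries of the set. In set B the lowest were Cas9 replicate 3 at -0.165 (28 of 35 below the GFP mean) and Cas9 replicate 4 at -0.102 (27 of 35), and the others lay between -0.083 and 0.072. On the long transcript index, over 728 genes in set B, Cas9 replicates 3 and 4 were at -0.145 and -0.065. The others ran from -0.087 to 0.131. Cas9 replicate 3 also had the highest level of the interferon-induced genes in set B (10.50), with Cas9 replicate 2 next (10.06) and Cas9 replicate 4 at 7.17.

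**Figure D3:**
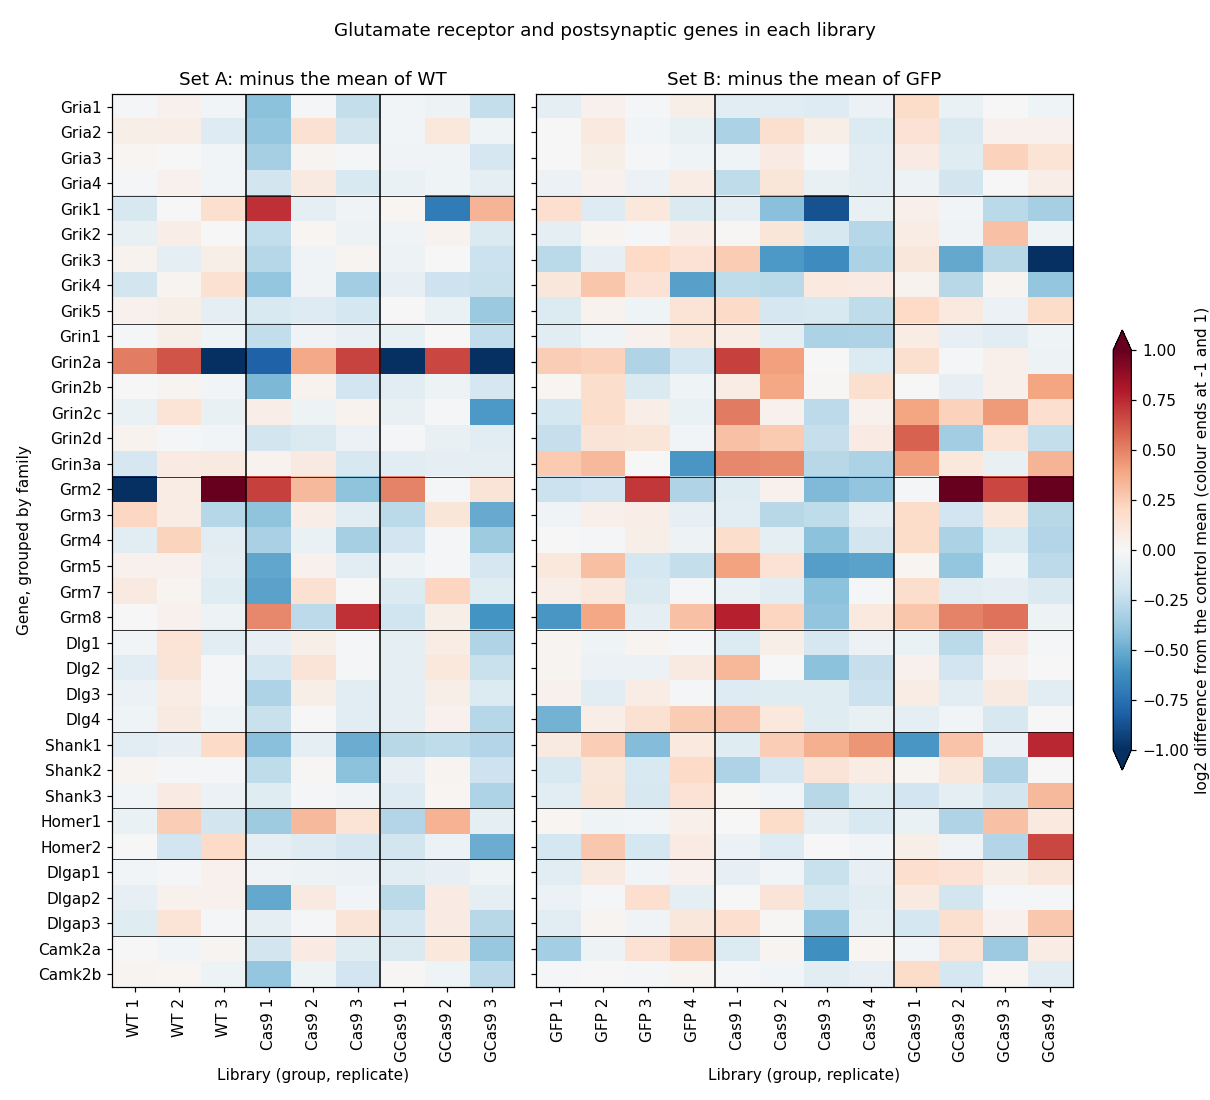
Log2 difference of each gene (rows, by family) in each library (columns) from the mean of the control group of its set, WT for set A and GFP for set B, with the colour scale ending at -1 and 1. The Cas9 1 and GCas9 3 columns of set A are blue over most rows (medians of -0.250 and -0.222), and the row of Grin2a shows its split across the groups.

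Cas9 was compared with WT in set A. WT is not known to be a virus control, so injection, virus and nuclease cannot be told apart in this comparison. Most of the 35 genes had lower mean log2 values with Cas9, but none passed an adjusted p of 0.05 in limma, where 0.00628% of all genes tested did. In this and the other 6 comparisons, edgeR and DESeq2 on the recovered reads also called 0 of the 35. Of the 35, 28 were lower, where 50.9% of all genes were lower, and the median log2 difference was -0.109 against -0.003 over all genes. Of these 28, 1 had an unadjusted p under 0.05 (5.65% of all genes were lower at that p, and 6.17% higher, against 0 of the 35), and 4 were lower in each Cas9 library than in each WT library (8.86% of all genes). None was higher without overlap (10.7% of all genes were). Those 4 were Grik5, Grin2d, Dlgap1 and Camk2b, and 4 of 35 is near the share over all genes. Without Cas9 replicate 1, the library with the choroid plexus marker, the median moved from -0.109 to -0.033. That was the lowest Cas9 library, with a median log2 deviation from the WT mean of -0.250. Replicate 2 was at 0.012 and replicate 3 at -0.104. With the long transcript index as a covariate 26 of 35 were lower, with a median of -0.048. When limma weighted the libraries by their agreement with the rest (weights of 0.32 for Cas9 replicate 1 to 5.6 for Cas9 replicate 3), 6 of the 35 were called, Gria1, Grin2b, Grm4, Shank1 and Shank2 lower and Grm8 higher, where 16.1% of all genes were called.

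The AMPA subunits were lower in 4 of 4 (median -0.125) and the Shank genes in 3 of 3 (median -0.217), as were the Dlg genes in 4 of 4 (median -0.065) and the Camk2 genes in 2 of 2 (median -0.144). The kainate family was lower in 4 of 5, the NMDA family in 4 of 6, the metabotropic receptors in 4 of 6, the Dlgap genes in 2 of 3 and the Homer genes in 1 of 2. Shank1, a scaffold of mature spines at chr7:44310253-44360572 on the plus strand, was read at 2531, 2565 and 3101 in WT and at 2036, 2560 and 1926 with Cas9. Replicate 2 of Cas9 lay within the WT range, so the groups overlapped. The difference was -0.34 ± 0.11 (SE) on the log2(value + 1) scale, 20.7% lower, with an unadjusted p of 0.0152 and an adjusted p of 0.405 in limma. Gria1, the AMPA subunit most tied to activity-dependent insertion, was read at 13747, 14354 and 13631 in WT and at 10463, 13750 and 11781 with Cas9, where only replicates 1 and 3 lay below WT. Its difference was -0.22 ± 0.10 (adjusted p = 0.423 in limma), and without Cas9 replicate 1 it was -0.13.

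On the other side stood Grm8, a presynaptic metabotropic receptor, at 183, 188 and 176 in WT and 255, 152 and 303 with Cas9, where replicates 1 and 3 were above WT and replicate 2 below. Its difference was 0.32 ± 0.25 (adjusted p = 0.605 in limma), and 0.11 without Cas9 replicate 3. Grik1 was high only in Cas9 replicate 1: its values were 83.7, 93.1 and 105 in WT and 156, 87.8 and 91 with Cas9. The difference of Grik1 was 0.20 ± 0.30 (adjusted p = 0.803 in limma) and turned to -0.06 without Cas9 replicate 1.

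Of 46 other postsynaptic genes (such as auxiliary subunits, adhesion proteins and spine enzymes), 39 were lower, 9 of them at an unadjusted p under 0.05, with a median of -0.139 and no adjusted p under 0.405 in limma. The smallest unadjusted p belonged to Lrrtm1, a postsynaptic adhesion protein, at 1751, 1773 and 1712 in WT and 1286, 1588 and 1395 with Cas9, without overlap (-0.30 ± 0.07, adjusted p = 0.405 in limma). Beside these values, the 9 spiny neuron markers were lower in 9 of 9 (median -0.099) and 8 pan-neuronal genes in 7 of 8 (median -0.148). All 9 microglia markers (median 0.620), all 8 reactive astrocyte markers (2.31) and all 8 oligodendrocyte markers (0.485) were higher with Cas9. In bulk tissue, fewer neurons and less RNA per neuron cannot be told apart, and the part of these cell types in the lower values was not tested.

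With GCas9 against WT, the same control libraries were used, so the 2 comparisons are not independent. Here too virus and nuclease cannot be told apart. None of the 35 genes passed in limma (0.00628% of all genes did), and 33 were lower, where 50.1% of all genes were, with a median of -0.105 against 0 over all genes. At an unadjusted p under 0.05, 1 was lower (2.33% of all genes) and none higher (4.44%). Without overlap, 5 were lower (7.02% of all genes), Gria3, Gria4, Grin2b, Shank1 and Dlgap1, and none higher (9.16%). Without GCas9 replicate 3, the library with the highest interferon genes, the median was -0.040. That was the lowest GCas9 library, with a median log2 deviation from the WT mean of -0.222. Replicate 1 was at -0.094 and replicate 2 at -0.007. With the long transcript index as a covariate 24 of 35 were lower with a median of -0.035. Leaving out the 4 libraries below 0 on the index, a choice made after seeing the data, leaves replicate 2 as the 1 GCas9 library, assumed to vary like the others; the 18 of 35 lower and the median of -0.008 then repeat the value of that library (-0.007).

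Shank1 was read at 2245, 2277 and 2216 with GCas9, a tight group below the lowest WT library (2531). The difference was -0.28 ± 0.11, 17.5% lower, with an unadjusted p of 0.0354 and an adjusted p of 0.724 in limma. With the index as a covariate the Shank1 difference was -0.29 with GCas9 and -0.34 with Cas9. Homer2, a partner of Homer1 in the same scaffold, was read at 469, 410 and 533 in WT and 412, 448 and 331 with GCas9, where only replicate 3 lay below the WT range. Its difference was -0.25 ± 0.13 (adjusted p = 0.739 in limma). The 2 genes that were not lower were Gria2 and Grm2. Gria2 was read at 21750, 21818 and 19063 in WT and 20415, 22435 and 20261 with GCas9, a difference of 0.01 ± 0.13 (adjusted p = 0.986 in limma). For Grm2 the log2 difference was 0.20 ± 0.65 (adjusted p = 0.959 in limma) while the plain mean was lower with GCas9 (41 against 48.8), and WT alone ran from 11.6 to 97.9.

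Of the 46 other postsynaptic genes, 41 were lower with GCas9, 2 at an unadjusted p under 0.05, with a median of -0.092 and no adjusted p under 0.724 in limma. Cnih2, an auxiliary AMPA receptor subunit, had the smallest p, at 4451, 4788 and 5016 in WT and 4154, 4529 and 3963 with GCas9 (-0.17 ± 0.07, adjusted p = 0.724 in limma). Spiny neuron markers were lower in 9 of 9 (median -0.143), and microglia markers higher in 9 of 9 (median 0.588). Of the 8 oligodendrocyte markers 7 were lower (median -0.037).

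GCas9 against Cas9 in set A asks whether the 2 nucleases differed. None of the 35 genes passed in limma, where 0% of all genes did, none had an unadjusted p under 0.05 (3.07% of all genes were lower and 2.38% higher at that p), and none was without overlap (4.45% of all genes were lower and 4.4% higher without overlap). With GCas9, 16 of 35 were lower, where 45.7% of all genes were, and the median was 0.007 against 0.012 over all genes. This count moved with single libraries, from 8 lower without GCas9 replicate 3, and 10 without Cas9 replicate 2, to 25 without Cas9 replicate 1. The medians without each of these ran from -0.050 to 0.070. With weighted libraries limma called 2 of the 35, Grm8 lower and Shank2 higher with GCas9, where 5.85% of all genes were called.

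Grm8 had the smallest p: the GCas9 values were 158, 190 and 120 against 255, 152 and 303 with Cas9, so that Cas9 replicate 2 lay inside the GCas9 range. The difference was -0.57 ± 0.25 (adjusted p = 0.916 in limma). Grin2c, an NMDA subunit best known from cerebellar granule cells, was read at 1736, 1802 and 1223 with GCas9 and 1906, 1765 and 1869 with Cas9, where GCas9 replicate 3 was the low one (-0.24 ± 0.14, adjusted p = 0.916 in limma). Shank2 stood at 3375, 3640 and 3099 with GCas9 and 3006, 3610 and 2694 with Cas9 (0.13 ± 0.10), and Gria2, at 15923, 23101 and 18344 with Cas9, was 0.15 ± 0.13 higher with GCas9 (both adjusted p = 0.945 in limma). Among the 46 other genes 22 were lower and 24 higher, with the smallest p for Lrrtm1, at 1692, 1581 and 1638 with GCas9 (0.21 ± 0.07, adjusted p = 0.890 in limma).

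**Figure D4:**
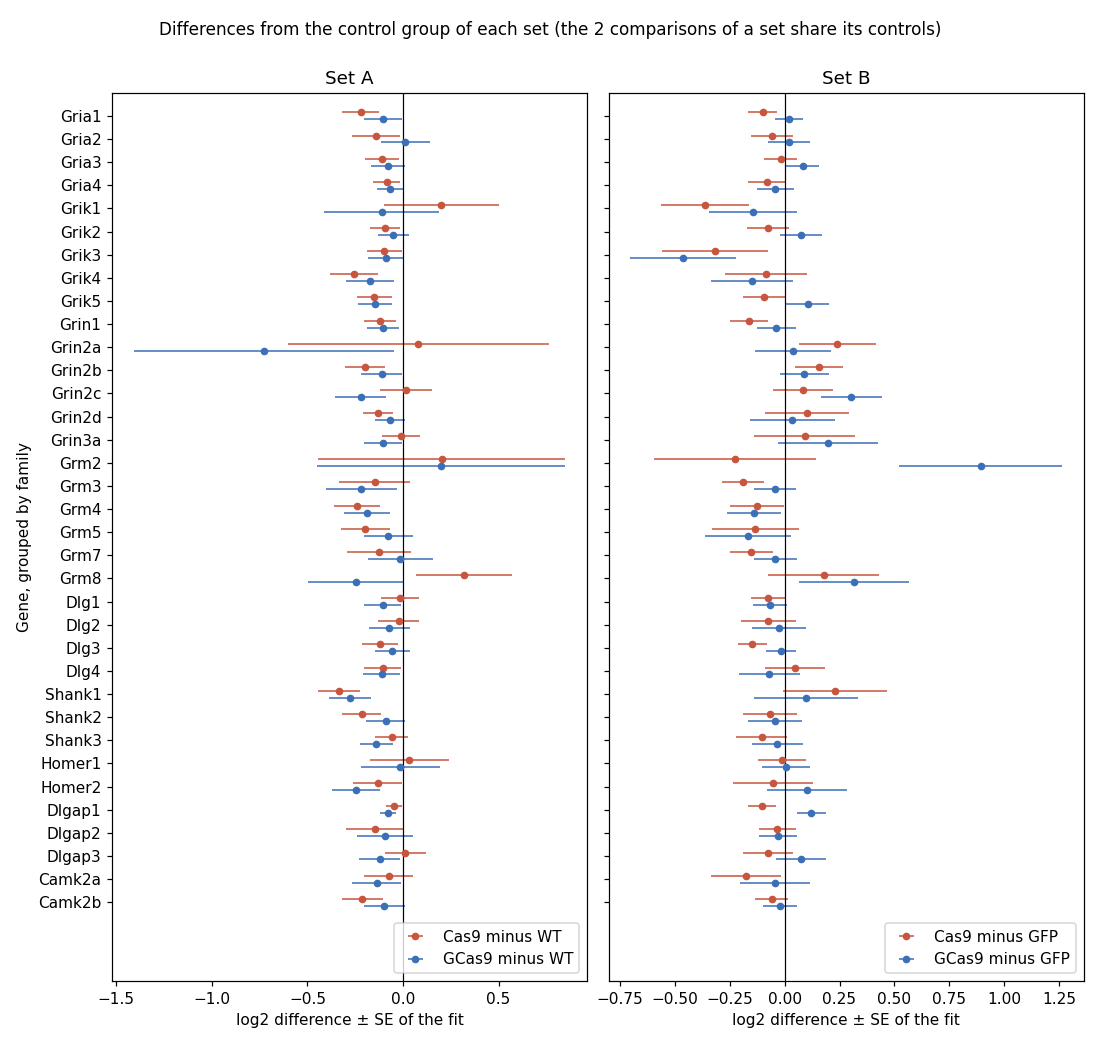
Log2 difference of each gene with its SE from the limma fit, for Cas9 (red) and GCas9 (blue) against WT in set A and against GFP in set B. In set A 28 and 33 of the 35 points lie below 0, in set B 27 and 18, and the 2 comparisons of a set share their control libraries.

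The other genes of central function did not pass the test in set A either, with differences of a size like that of Gria1 for Camk2b (13.7% lower with Cas9), Grin2b (12.9% lower) and Grm5 (12.8% lower). Grin1 was read at 16522, 17404 and 16244 in WT, 14058, 16314 and 15848 with Cas9, and 15921, 16718 and 14075 with GCas9. Grin2b stood at 12204, 12375 and 11913, at 8917, 12495 and 10656, and at 11220, 11726 and 10836 in the same order of groups. Gria3 was read at 5493, 5436 and 5299, at 4290, 5511 and 5331, and at 5292, 5291 and 4810. In each of these 3 genes Cas9 replicate 1 was the lowest library. Grm5 stood at 11370, 11369 and 10341 in WT, 7674, 11373 and 10163 with Cas9, and 10633, 10909 and 9822 with GCas9. Dlg4 was read at 22290, 24453 and 22312, at 19757, 23099 and 21380, and at 21544, 23738 and 18844. Shank3, whose loss in mice impairs striatal synapses, was read at 13754, 14865 and 13468, at 12862, 13897 and 13668, and at 12828, 14223 and 11303. The groups overlapped in Grm5, Dlg4 and Shank3. Homer1 was highest in replicate 2 of each group, with values of 4247, 5271 and 3924, then 3473, 5554 and 4883, then 3631, 5662 and 4160. Camk2a stood at 56251, 55110 and 57064 in WT, 49487, 59353 and 51609 with Cas9, and 50760, 60420 and 43285 with GCas9. Camk2b stood at 46027, 45712 and 43477, at 34379, 43386 and 39378, and at 45539, 43650 and 37532. In Camk2b all Cas9 libraries were below all WT libraries, replicate 2 (43386) only just (lowest WT, 43477).

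In set B, Cas9 was compared with GFP, a viral cargo that is not a nuclease. None of the 35 genes passed in limma, where 0% of all genes did. With Cas9, 27 of 35 were lower (51.3% of all genes), the median was -0.077 against -0.005 over all genes, and 1 was lower at an unadjusted p under 0.05 (3.01% of all genes) and none higher (3.23%). Without overlap, 3 were lower (2.05% of all genes), Grm3, Dlg3 and Camk2b, and none higher (2.63%). Without Cas9 replicate 3 the median was -0.046 and 22 of 35 were lower. That was the lowest Cas9 library, with a median log2 deviation from the GFP mean of -0.165. Replicates 1 and 2 were at 0.005 and 0.029. With the long transcript index as a covariate 26 of 35 were lower, with a median of -0.056. The AMPA family was lower in 4 of 4, the kainate family in 5 of 5 and the metabotropic receptors in 5 of 6, while 1 of 6 NMDA genes (Grin1) was lower. The Dlgap (3 of 3), Homer (2 of 2) and Camk2 genes (2 of 2) were lower, as were 3 of 4 Dlg and 2 of 3 Shank genes. The Cas9 libraries were also the shallowest of the set, and the part of depth in these values was not tested.

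Dlg3 (SAP102), a scaffold that binds NMDA receptors, was read at 1684, 1520, 1718 and 1622 with GFP and at 1492, 1503, 1504 and 1406 with Cas9, every Cas9 library below every GFP library. Its difference was -0.15 ± 0.07, 9.71% lower (adjusted p = 0.788 in limma). Grm3 was read at 1701, 1808, 1826 and 1649 with GFP and 1611, 1439, 1461 and 1611 with Cas9, also without overlap (-0.19 ± 0.10, adjusted p = 0.790 in limma). Higher with Cas9 were Grin2b, at 1552, 1732, 1385 and 1485 against 1614, 2007, 1545 and 1709, and Grin2a, at 229, 227, 156 and 171 against 312, 257, 194 and 176. Their groups overlapped, and the differences were 0.16 ± 0.11 for Grin2b (adjusted p = 0.849 in limma) and 0.24 ± 0.17 for Grin2a (adjusted p = 0.851 in limma). Without Cas9 replicate 1 that of Grin2a was 0.09, and without Cas9 replicate 2 that of Grin2b was 0.08. Of 44 other postsynaptic genes tested, 31 were lower and 3 of these had an unadjusted p under 0.05. The smallest p belonged to Iqsec2, an exchange factor for Arf proteins in spines, at 339, 425, 309 and 356 with GFP and 281, 314, 297 and 264 with Cas9 (-0.30 ± 0.10, adjusted p = 0.781 in limma). Spiny neuron markers were split, with 5 of 9 lower (median -0.038).

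Against GFP, Grm2 and Grin2c had the smallest p of the genes that were higher with GCas9, but none of the 35 passed in limma, where 0% of all genes did. With GCas9, 18 of 35 were lower (50.9% of all genes), with a median of -0.017 against -0.003, and 2 were higher at an unadjusted p under 0.05 (3.71% of all genes) and none lower (2.76%). None was without overlap, where 1.66% of all genes were lower and 2.5% higher in that way. Without GCas9 replicate 2, 12 of 35 were lower with a median of 0.029. Grm2 was read at 12.6, 12.8, 24.8 and 11.8 with GFP and at 14.6, 52.8, 24.1 and 34.2 with GCas9, so that GFP replicate 3 overlapped the GCas9 range. Its difference was 0.89 ± 0.37, 85.7% higher (adjusted p = 0.742 in limma), and 0.60 without GCas9 replicate 2. Grin2c was read at 341, 436, 404 and 369 with GFP and at 509, 452, 519 and 433 with GCas9, with only GCas9 replicate 4 inside the GFP range (0.30 ± 0.14, 23.5% higher, adjusted p = 0.760 in limma).

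Markers of cortical excitatory neurons were also higher with GCas9. Slc17a7 was read at 312, 280, 68.2 and 804 with GCas9, against 44.2, 74.4, 21.9 and 61 with GFP and 64.4, 20.9, 47.2 and 55.3 with Cas9. Of the 12 cortical markers 9 passed the level filter, and all 9 were higher with GCas9 than with GFP (median 0.648). Their summed value was 1210 to 2403 with GCas9, 950 to 1165 with GFP and 881 to 1162 with Cas9, and none of the 12 was at 0 in every library of a group. The mean log2 level of the list was 5.92, 5.53, 5.07 and 6.38 in GCas9 replicates 1 to 4. The part of cortical tissue in the Grm2 values was not tested.

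The lowest against GFP was Grik3, at 404, 460, 560 and 540 with GFP and 527, 340, 402 and 216 with GCas9, where 3 libraries were below the lowest GFP library and replicate 4 was the lowest (-0.46 ± 0.24, adjusted p = 0.786 in limma, and -0.23 without replicate 4). Grm4, a presynaptic receptor of striatal output neurons, stood at 825, 811, 859 and 795 with GFP and 936, 659, 750 and 672 with GCas9, with replicate 1 above the GFP range and the other 3 below it (-0.14 ± 0.12, adjusted p = 0.858 in limma). Without GCas9 replicate 1 the difference of Grm4 was -0.25, and without replicate 2 it was -0.08. Of 44 other postsynaptic genes 22 were lower and 22 higher. Nlgn3, an adhesion protein of both excitatory and inhibitory synapses, had the smallest p, at 790, 787, 782 and 948 with GFP and 673, 639, 716 and 722 with GCas9, without overlap (-0.26 ± 0.08, adjusted p = 0.644 in limma).

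GCas9 against Cas9 in set B had most genes higher with GCas9. None of the 35 passed in limma, where 0% of all genes did. With GCas9, 9 of 35 were lower, where 49.4% of all genes were, and 26 were higher, with a median of 0.076 against 0.002 over all genes. At an unadjusted p under 0.05, 2 were higher (2.27% of all genes), Dlgap1 and Grm2, and none lower (1.57%). Without overlap, 2 were higher (1.23% of all genes), Dlg3 and Dlgap1, and none lower (0.797%). Without Cas9 replicate 3, the lowest library of the set, 15 of 35 were lower and the median was 0.019. With the long transcript index as a covariate 9 of 35 were lower and the median was 0.076. Of the families, the AMPA subunits (0 of 4 lower, median 0.088), the Dlgap genes (0 of 3, median 0.152), the Homer genes (0 of 2) and the Camk2 genes (0 of 2) had no lower member, and of the others 2 of 5 kainate, 3 of 6 NMDA, 2 of 6 metabotropic, 1 of 4 Dlg and 1 of 3 Shank genes were lower.

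Dlgap1 was read at 1332, 1389, 1209 and 1335 with Cas9 and at 1586, 1560, 1472 and 1530 with GCas9, and with GFP, which overlapped both, at 1306, 1503, 1387 and 1458. The difference was 0.23 ± 0.07, 16.9% higher (adjusted p = 0.995 in limma), and it lay between 0.19 and 0.25 when each library was left out in turn. Grm2 was read at 13.6, 15.3, 10.6 and 11.1 with Cas9, so that GCas9 replicate 1 (14.6) fell inside the Cas9 range and the other 3 lay above it (1.12 ± 0.37, adjusted p = 0.995 in limma). The cortical markers were again higher in 9 of 9 (median 0.404). Lower with GCas9 were Grin2a, at 217, 192, 200 and 186 against the Cas9 values above (-0.20 ± 0.17), and Dlg4, at 399, 418, 380 and 428 against 518, 457, 391 and 405 with Cas9 (-0.12 ± 0.14, both adjusted p = 0.995 in limma). For both, Cas9 replicate 1 was the high library, which also had the highest choroid plexus markers of set B. Without that library the differences were -0.06 and -0.04. The part of choroid plexus tissue in these values was not tested. Of 44 other postsynaptic genes 16 were lower and 28 higher. Nsf, an ATPase that binds Gria2, had the smallest p, at 6474, 5635, 5698 and 5672 with Cas9 and 7147, 6036, 6412 and 6667 with GCas9 (0.16 ± 0.07, adjusted p = 0.995 in limma).

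**Figure D5:**
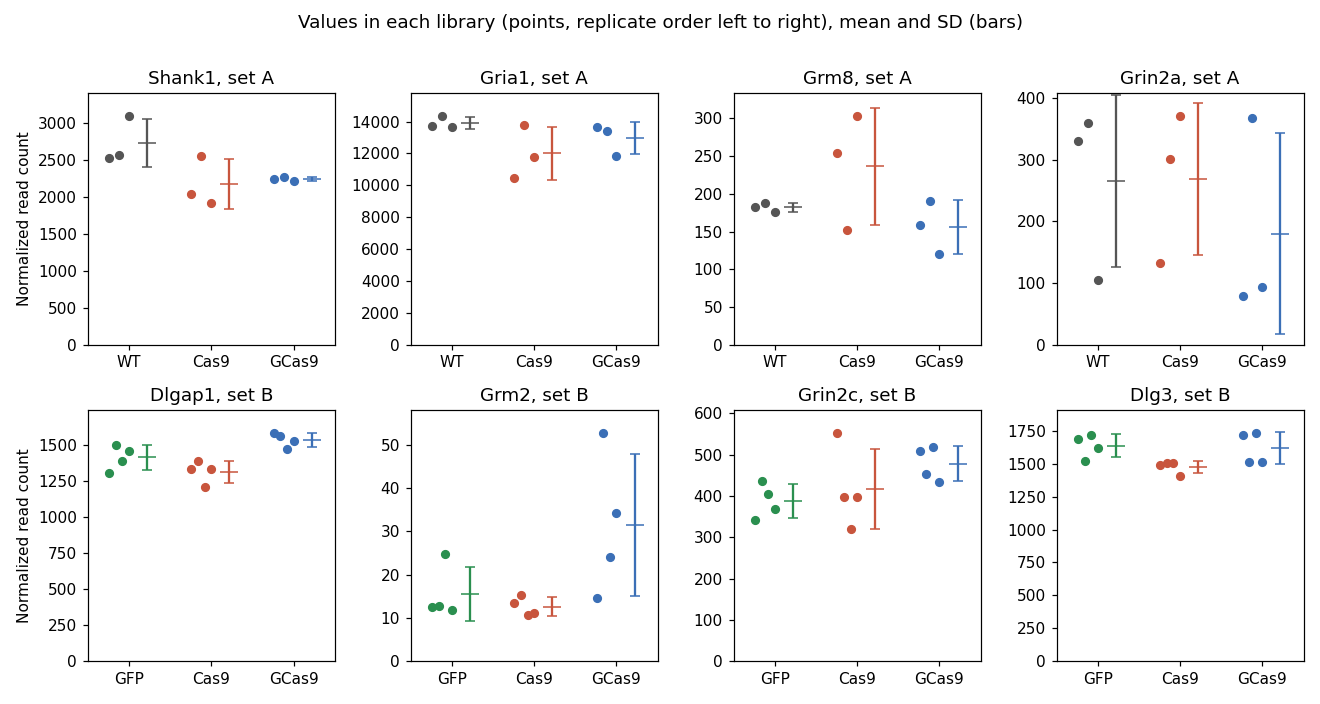
Normalized read counts in each library (points) with the mean and SD of each group (bars) for Shank1, Gria1, Grm8 and Grin2a in set A and Dlgap1, Grm2, Grin2c and Dlg3 in set B. Of these, Shank1 with GCas9 (2216 to 2277) lies below all WT libraries, Dlg3 with Cas9 (1406 to 1504) below all GFP libraries, and Dlgap1 with GCas9 (1472 to 1586) above all Cas9 libraries.

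The other genes of central function overlapped between the groups of set B, except Camk2b. Gria1 was read at 3773, 4153, 4002 and 4192 with GFP, 3747, 3720, 3688 and 3872 with Cas9, and 4566, 3849, 4045 and 3901 with GCas9. Gria2 stood at 7623, 8182, 7490 and 7263, at 6142, 8523, 7959 and 6949, and at 8422, 6894, 7843 and 7852, and Gria3 at 1358, 1406, 1333 and 1308, at 1313, 1433, 1340 and 1259, and at 1426, 1242, 1587 and 1489. Grin1 was read at 3866, 4034, 4270 and 4476 with GFP, 4369, 3892, 3336 and 3351 with Cas9, and 4364, 3928, 3867 and 4043 with GCas9. Cas9 replicates 3 and 4 were the lowest for Grin1, and so they were for Grm5. Grm5 stood at 2946, 3373, 2420 and 2318, at 3604, 3026, 1867 and 1890, and at 2777, 2085, 2652 and 2282. Grin2b with GCas9 was at 1531, 1447, 1587 and 2021. Dlg4 with GFP was at 307, 446, 474 and 508, a spread within 1 group wider than the gap between groups. Shank3 was read at 705, 823, 678 and 840, at 766, 742, 625 and 696, and at 664, 713, 668 and 948, and Homer1 at 1654, 1583, 1598 and 1695, at 1638, 1856, 1533 and 1470, and at 1555, 1324, 2002 and 1750. Camk2a stood at 6232, 7637, 8743 and 9379 with GFP, 7191, 8066, 5157 and 8001 with Cas9, and 7775, 8703, 6131 and 8319 with GCas9. Camk2b stood at 15977, 15984, 15925 and 16396 with GFP, 15874, 15797, 14857 and 15213 with Cas9, and 18208, 14249, 16302 and 14854 with GCas9, where the narrow GFP range leaves all Cas9 libraries just below it.

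The promoters of the 3 genes with an unadjusted p under 0.05 in a comparison of GCas9 in set B are shown as the 250 bases before the RefSeq start (GRCm38.p6), with matches to 3 motifs in capitals, to set their base content side by side. The motifs searched on both strands were the GC box GGGCGG, the cyclic AMP response element TGACGTCA and TTCAGCACC, a core of the element bound by the repressor REST. They lie at chr17:69968823-69969072 (plus strand) for Dlgap1, chr9:106656110-106656359 (minus strand) for Grm2 and chr11:115267244-115267493 (minus strand) for Grin2c.
Dlgap1: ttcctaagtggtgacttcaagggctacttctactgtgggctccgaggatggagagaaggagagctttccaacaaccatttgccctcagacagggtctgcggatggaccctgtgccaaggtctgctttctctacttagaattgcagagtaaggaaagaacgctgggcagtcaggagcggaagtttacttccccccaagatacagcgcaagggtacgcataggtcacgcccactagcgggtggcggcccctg
Grm2: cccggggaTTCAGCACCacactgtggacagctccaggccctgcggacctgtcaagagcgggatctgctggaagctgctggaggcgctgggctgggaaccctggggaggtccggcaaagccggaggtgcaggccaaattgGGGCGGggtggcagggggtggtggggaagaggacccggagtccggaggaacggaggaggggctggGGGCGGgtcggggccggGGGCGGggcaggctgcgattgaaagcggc
Grin2c: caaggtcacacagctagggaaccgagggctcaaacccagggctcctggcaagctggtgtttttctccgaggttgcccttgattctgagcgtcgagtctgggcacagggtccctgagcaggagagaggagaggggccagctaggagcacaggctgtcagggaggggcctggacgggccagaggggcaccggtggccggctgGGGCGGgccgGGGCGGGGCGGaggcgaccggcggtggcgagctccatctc
The window of Dlgap1 held none of the 3 motifs and 55.2% G or C, that of Grm2 held 3 GC boxes and the REST core with 71.2%, and that of Grin2c held 3 GC boxes with 68.8%, 2 of them overlapping by 1 base. Of all 32851 windows in RefSeq's set given here, 32.7% held a GC box, 1.55% the cyclic AMP element and 0.301% the REST core. Windows were given for 23 of the 35 genes, 37 in all, of which 16 held a GC box (43.2%), 0 the cyclic AMP element and 1 the REST core. A match describes the letters only.

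The difference between GCas9 and Cas9 was itself compared between the sets in a fit of all 21 libraries. None of the 35 passed in limma, where 0% of all genes did. In 22 of 35 the difference was lower in set A than in set B, where 49.4% of all genes were, and 2 were so at an unadjusted p under 0.05 (2.29% of all genes), and none was higher (2.05%). These were Dlgap1, at -0.03 in set A and 0.23 in set B (difference -0.26 ± 0.08, adjusted p = 0.992 in limma), and Grin2c, at -0.24 and 0.22 (-0.46 ± 0.21, adjusted p = 0.992 in limma). Without Cas9 replicate 1 of set A 27 of 35 were lower (median -0.174), and without Cas9 replicate 2 of set A 17 of 35 (median 0), against a median of -0.069 with all libraries.

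As a description with no test, the share of reads that each gene took differed between the sets, which the authors scaled and may have prepared apart, so that set, mice and sequencing cannot be told apart. On the log2 scale of set B over set A, 25 of the 35 lay below the median of the 14486 genes compared, which was 0.28. The median of the 35 was -0.34, and that of the 822 compared genes with transcripts of at least 8000 bases was -0.63. The longest transcripts had a median of 5546 bases over the 35 and 3175.5 over all genes compared. The part of transcript length in these shares was not tested. Dlg4 took 925 reads per M in set A and 50.6 in set B, 18.3 times less, at the 0.069th percentile of all genes compared. The scaffolds Shank3 (-2.70 on the log2 scale), Shank1 (-1.90) and Shank2 (-1.70), the receptors Grik3 (-1.79), Grin2b (-1.31) and Grik5 (-0.97), and Camk2a (-1.33) and Dlgap3 (-1.10) were also within the lowest 10%, 9 of the 35 in all. Grm3 (1.40) and Grin2a (1.31) took larger shares in set B.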

How the data were processed

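RNA of 21 libraries of mouse striatal tissue was measured by sequencing. The deposited table holds 1 signal value for each symbol and library, read counts that the authors divided by a size factor (DESeq2), as its values show. Tools named in the submitters' processing notes are HTSeq, DESeq2, STAR 2.5.2b, R 3.3.3 and SAMtools, with build GRCm38.p3; parameters and annotation are not given in the sources used here. SMARTer cDNA and Nextera XT libraries were used, per the labels' protocols, so reads are amplified copies. Dividing by the smallest step of a library gave whole reads for 100% of values (within 0.01), also in WT and Cas9 replicate 3 of set A, whose size factors are near 1 (1.011 and 0.989), used for edgeR 4.0.16 and DESeq2 1.42.0. Of 41128 symbols, 13121 had no read.

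The groups of a set were fitted together with limma 3.58.1 (R 4.3.3, trend) on log2(value + 1), for genes with a mean of at least 10, with Benjamini-Hochberg adjustment over all genes tested, called at an adjusted p under 0.05; the set difference was fitted on all 21 libraries. Log2 fold changes with a pseudocount understate changes of low genes. The script was tested on simulated data. Sets were told apart by title numbering and scaling. Exon lengths came from GENCODE M21 (GRCm38). Values in every library are given for Gria1, Gria2, Gria3, Grin1, Grin2a, Grin2b, Grm5, Dlg4, Shank3, Homer1, Camk2a and Camk2b and, per comparison, for the 2 genes in each direction of smallest p among the 35, with fold changes; of the 46 other postsynaptic genes, the 1 of smallest p per comparison is named. The 35 genes and the lists were chosen with earlier results of these data known. Alternatives were other pseudocounts (0.5 and 5), filters (none, or a mean of 50), scalings and tests, fits of only the groups compared, weighted libraries, a replicate block, leaving out each library and, chosen after seeing the data, the long transcript index. Drd1 was matched by its older symbol Drd1a. One further spiny neuron marker of the list is not reported here.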

Additional observations from a re-analysis of the deposited data

Results flagged for a closer look

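In the groups of 4 libraries of set B, 4 of the 105 group values of the 35 genes had 1 library far from the other 3, by Dixon's ratio above its 95% critical value; chance alone flags about 1 in 20. Grm2 in GFP replicate 3 was 24.8, where the other GFP libraries were 11.8 to 12.8. Grm7, a presynaptic metabotropic receptor, was 1451 in GCas9 replicate 1, where the other GCas9 libraries were 1161 to 1204. Dlg3 in Cas9 replicate 4 was 1406, where the other Cas9 libraries were 1492 to 1504. Camk2b in GFP replicate 4 was 16396, where the other GFP libraries were 15925 to 15984. No gene of the 35 passed the test of the difference between sets.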

How the results depend on the processing

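The number of genes called among the 35 was 0 in all 7 comparisons under the other pseudocounts, filters, scalings and tests, with the replicate block and with each library left out. The exception was library weighting, which gave 6 calls for Cas9 against WT and 2 for GCas9 against Cas9 in set A. Titles of the groups share replicate numbers, but 6 of 9 same-number pairs in set A (correlations of -0.019 to 0.644) and 7 of 12 in set B (-0.13 to 0.462) were over 0.1, against 4 of 18 and 6 of 36 pairs of different numbers, and 7 of 9 and 8 of 12 libraries correlated best with their own number. This hints at pairing, which the labels do not give; since not every pair was over 0.1, the block is not the main fit. All 4 Cas9 and GCas9 pairs of set B were over 0.1 (0.121 to 0.329). The replicate block moved the calls over all genes from 1 to 2 for both nucleases against WT and from 0 to 5 for GCas9 against GFP, and the genes of the 35 at an unadjusted p under 0.05 from 1 to 4, 1 to 2 and 2 to 1 in these 3 comparisons; it left them at 2 for GCas9 against Cas9 in set B. DESeq2 called 116, 218, 4, 14, 41, 0 and 0 genes of all tested, in the order of the comparisons above, where limma called 1, 1, 0, 0, 0, 0 and 0 and edgeR 0, 1, 0, 0, 0, 0 and 0; the cause was not tested.

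Grik1 with Cas9 against WT turned to -0.043 with the index as a covariate, and ran from -0.064 to 0.347 with each library left out. Grm2 with GCas9 against WT was -0.084 with quantile normalization, -0.25 with edgeR and with DESeq2 and -0.36 with the index, and ran from -0.565 to 0.924 with each library left out. Gria2 with GCas9 against WT was -0.023 with weighted libraries and ran from -0.052 to 0.045. Homer2 with GCas9 against WT was 0.034 without the 4 libraries low on the index, where 1 GCas9 library is left. Few reads limit the precision of Grm2 in set B (10.6 to 52.8 normalized reads). The cause of each turn was not tested.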
